A study of Rattus norvegicus with 6 samples.

Results

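The genes described here encode the receptors through which neuregulin acts on Schwann cells, together with neuregulin itself and a pair of receptor inhibitors. They were chosen by symbol, as Egfr, Erbb2, Erbb3 and Erbb4 for the receptors, Nrg1 for the ligand, and Errfi1 and Lrig1 for the inhibitors. Of these 7 genes, 6 have a row among the 17327 genes of the count files, and 4 (Erbb2, Erbb3, Nrg1 and Errfi1) had enough counts to be among the 9740 genes tested. Egfr and Erbb4 are described by their counts, and Lrig1 was not analysed here. RNA came from primary Schwann cells of sciatic nerves of adult female Wistar rats, the myelin-forming glia of peripheral nerve, in 3 independent cultures that each gave 1 mock and 1 NRG1 library. All cultures had been grown to confluence in serum with, per the labels, 63 ng/mL glial growth factor, a neuregulin, and 10 μM forskolin, which raises cAMP, and were then kept for 18 h in starving medium with 2% serum and 10 μM forskolin. NRG1 samples received 10 nM recombinant soluble NRG1β1 for 6 h, and mock samples received the same volume of the buffer with albumin. The study's methods name recombinant NRG1β1 in place of glial growth factor for the growth medium, and the sources thus differ in which neuregulin it held. By either source both groups had met a neuregulin before starvation, and both stayed in forskolin, so that the comparison shows renewed stimulation of cells cultured without axons.

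ErbB receptors are tyrosine kinases that work in pairs. ErbB3 binds neuregulin but has little kinase activity of its own, whereas ErbB2 binds no known ligand and supplies the kinase, so that the heterodimer of both is the neuregulin receptor of Schwann cells. EGFR (ErbB1) answers to EGF-like ligands and ErbB4 binds neuregulins with an active kinase. Nrg1 gives soluble and transmembrane isoforms by alternative promoters and splicing, and the count of a gene adds them all up. Errfi1 (MIG6) is a cytoplasmic protein that blocks the kinase domains of EGFR and ErbB2, and Lrig1 is a transmembrane protein that promotes receptor degradation.

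To place the genes whose levels carry the comparison, their promoter sequences are given for Erbb2, the receptor with the smallest adjusted p, Egfr, which was counted in 1 culture, and Errfi1, the inhibitor. The RefSeq table (build GRCr8, while the counts were made on rn5) held a promoter for 5 of the 7 genes, and bases from the first annotated base of the gene onwards are left out. Capitals mark letters that match a searched motif on either strand.
Erbb2 (chr10:83907351-83907490, strand +): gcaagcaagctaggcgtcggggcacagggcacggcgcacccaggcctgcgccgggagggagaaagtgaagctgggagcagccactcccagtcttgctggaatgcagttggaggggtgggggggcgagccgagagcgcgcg
Egfr (chr14:95378376-95378625, strand +): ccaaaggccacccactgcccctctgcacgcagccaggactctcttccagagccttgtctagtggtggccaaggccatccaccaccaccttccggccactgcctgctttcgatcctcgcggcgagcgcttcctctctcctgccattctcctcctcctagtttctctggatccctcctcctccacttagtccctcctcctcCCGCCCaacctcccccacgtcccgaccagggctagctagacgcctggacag
Errfi1 (chr5:166606591-166606840, strand +): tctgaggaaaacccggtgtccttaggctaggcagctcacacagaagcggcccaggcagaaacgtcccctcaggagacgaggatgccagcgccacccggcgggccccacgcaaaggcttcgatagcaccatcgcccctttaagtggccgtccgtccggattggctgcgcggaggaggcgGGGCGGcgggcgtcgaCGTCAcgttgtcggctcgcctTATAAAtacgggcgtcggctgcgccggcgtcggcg
The motifs searched in the 250 bases of each promoter window were a TATA box (TATAAA), a full cAMP response element (TGACGTCA), its shortened form (TGACG, which also lies within the full element), an AP-1 site (TGANTCA) and a GC box (GGGCGG). The Errfi1 window held a TATA box 35 bases before the start, the shortened cAMP motif at 56 bases and a GC box at 72 bases. These motifs occur in 12.9%, 18.2% and 30.5% of the 33469 rat promoters in the table, respectively. The Egfr window held only a GC box. The single GC box of Erbb2 lies in the 110 bases not printed, which begin at the first annotated base of the gene. No full cAMP response element, found in 1.59% of promoters, and no AP-1 site, found in 6.34%, was in these 3 windows.

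Counts on genes ranged from 6821590 to 15475018 per library, so that the smallest level considered, 3 counts, corresponded to between 0.194 and 0.444 CPM (counts per 1000000, with library sizes scaled by TMM factors). Culture 1 stood apart before any comparison of treatments. The fibroblast markers Thy1, Dcn and Lum had from 111 to 9493 counts in both of its libraries and 0 counts in all 4 libraries of cultures 2 and 3. The summed level of all 7 fibroblast markers was 53425 and 57718 CPM in the mock and NRG1 libraries of culture 1, against 13693 to 22332 CPM in the others, where nearly all of it was Col1a1. The pericyte and smooth muscle list behaved likewise, with 3082 and 3130 CPM in culture 1 and 226.7 to 410.0 CPM elsewhere. Schwann cell markers (11 genes) summed to 5871 and 7250 CPM in culture 1 and to between 14486 and 18505 CPM in cultures 2 and 3. Macrophage, endothelial and neuronal lists did not exceed 15.1 CPM in any library, and Ptprc, C1qa, Pecam1 and Cdh5 were at 0 throughout. The 3 perineurial markers summed to between 43.4 and 96.3 CPM. In bulk RNA, fewer cells of a type and less RNA per cell cannot be told apart.

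None of the 4 tested genes passed an adjusted p of 0.01 between NRG1 and mock samples in edgeR's quasi-likelihood test with the culture as a block, while 11.8% of all genes tested did. At an unadjusted p under 0.05 there were 2 of them, Erbb2 and Nrg1, which ranked 1392 and 1555 of the 9740 genes by smallest p. DESeq2 also called 0 of the 4, where it called 590 genes up and 433 down in all. Erbb2 and Nrg1 came nearest, with higher levels in the NRG1 library of each of the 3 pairs. Erbb3 and Errfi1 had estimates slightly below 0. At an adjusted p of 0.05, which 23.2% of all genes passed, Erbb2 and Nrg1 would have been counted and the other 2 genes would not.

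**Figure D1:**
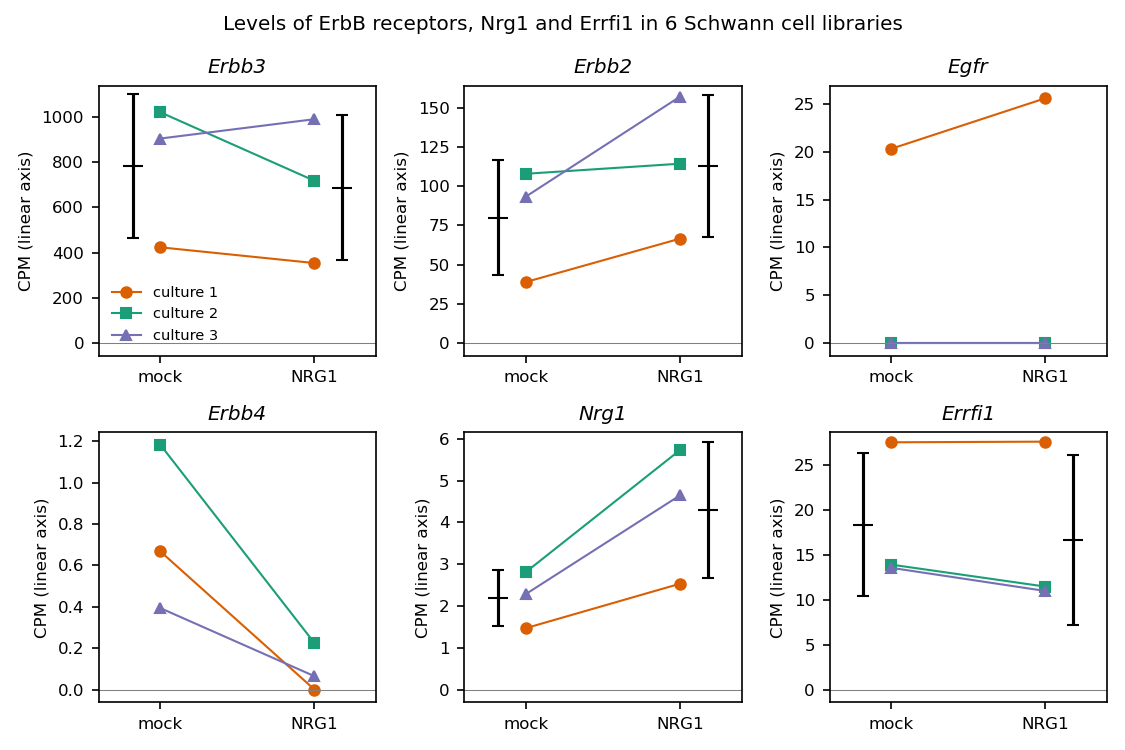
Levels in CPM (vertical axes, linear, each with its own range) of 6 genes in mock and NRG1 libraries, with a line joining the libraries of 1 culture and black bars giving mean and SD over 3 libraries (not drawn for Egfr and Erbb4, which hold counts of 0). Erbb2 and Nrg1 lines point upwards in all 3 cultures, Egfr was counted in culture 1 only, and culture 1 is lowest for Erbb2 and Erbb3 and highest for Errfi1.

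Erbb2, the kinase-bearing partner, was measured at 38.9, 107.9 and 93.3 CPM in mock cultures 1, 2 and 3 and at 66.5, 114.3 and 157.0 CPM after NRG1. The NRG1 library was the higher one in every pair, although the groups overlapped, because the mock level of cultures 2 and 3 exceeded the NRG1 level of culture 1. On average (mean ± SD over n = 3 libraries, here and for the levels that follow) there were 80.0 ± 36.4 CPM without and 112.6 ± 45.3 CPM with NRG1. The fitted fold change was 1.45 (95% interval 1.17 to 1.79), or 0.53 on the log2 scale (standard error 0.14, adjusted p = 0.016). Log2 ratios of the single pairs were 0.77, 0.08 and 0.75, so that culture 2 contributed little to the difference. Without replicate 2 the log2 fold change was 0.76 (adjusted p = 0.00063) and Erbb2 passed, whereas without replicate 1, the culture with fibroblast markers, it was 0.43 (adjusted p = 0.078), and without replicate 3 it was 0.44 (adjusted p = 0.13). Erbb2 also passed with no low-count filter (log2 fold change 0.52, adjusted p = 0.002). Over 10 alternative settings the log2 fold change stayed between 0.43 and 0.76, with adjusted p-values from 0.00063 to 0.71, the last in the fit without the block.

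Erbb3, the neuregulin-binding partner, was at 423.0, 1020 and 903.6 CPM in the mock libraries and at 353.4, 716.9 and 989.0 CPM in the NRG1 libraries of cultures 1, 2 and 3. It was lower after NRG1 in cultures 1 and 2 and higher in culture 3, and the groups overlapped over most of their range. Mean levels were 782.1 ± 316.3 CPM without and 686.5 ± 318.9 CPM with the ligand. The fold change of 0.86 had a 95% interval from 0.70 to 1.06 (log2 -0.21, standard error 0.14, adjusted p = 0.30).

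**Figure D2:**
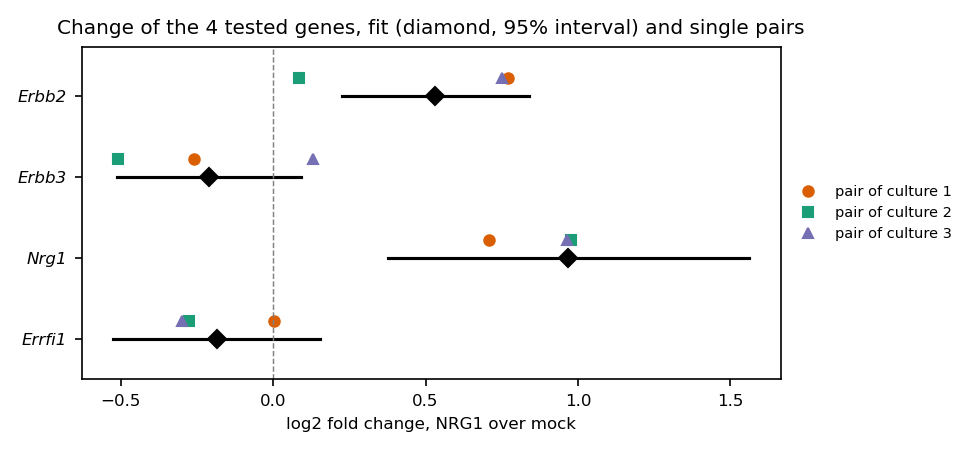
Log2 fold changes of NRG1 over mock (horizontal axis) for the 4 tested genes, as diamonds with 95% intervals from the paired edgeR fit, with the ratio of each single culture drawn above as a coloured symbol. The intervals of Erbb2 and Nrg1 lie above 0 and those of Erbb3 and Errfi1 include it.

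Whether both partners of the receptor moved alike was asked within each library, by the ratio of Erbb3 to Erbb2 counts. This ratio also carries the unknown transcript lengths, and therefore its size is not a ratio of molecules, but its change between libraries does not depend on them or on library size. In mock cultures 1, 2 and 3 there were 10.9, 9.45 and 9.69 Erbb3 counts per Erbb2 count, and after NRG1 there were 5.31, 6.27 and 6.30. Every NRG1 value was below every mock value, and all 3 pairs moved downwards. The mean log2 ratio was 3.32 in mock and 2.57 in NRG1 samples, and the differences in the pairs were -1.03, -0.59 and -0.62 (mean -0.75, SD 0.25, n = 3 pairs). The exact paired permutation test, two-sided, gave p = 0.25, which is the smallest value that 3 pairs allow. Culture 1, with its fibroblast markers, had the largest difference, and without it the mean was -0.61.

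**Figure D3:**
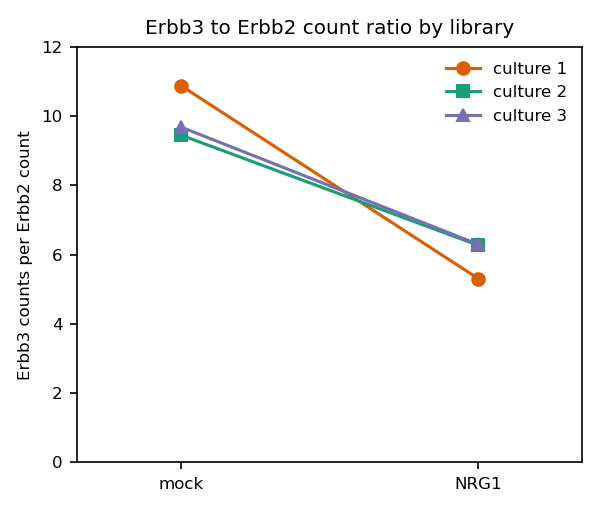
Erbb3 counts per Erbb2 count (vertical axis, from 0) in mock and NRG1 libraries, with a line for each of the 3 cultures. All lines fall, from between 9.45 and 10.9 in mock to between 5.31 and 6.30 in NRG1 libraries.

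Egfr was counted in culture 1 alone, with 152 counts (20.3 CPM) in its mock and 192 counts (25.6 CPM) in its NRG1 library. Cultures 2 and 3 gave 0 counts in all 4 libraries, which allows up to 3 counts, or 0.194 to 0.444 CPM. The level in culture 1 was thus at least 45.8-fold higher than in culture 2 and at least 85.9-fold higher than in culture 3 in mock samples, taking 3 counts per library as the floor, and at least 75.9-fold and 132.2-fold higher in NRG1 samples. Within culture 1 the NRG1 to mock ratio was 1.26 (exact 95% interval 1.01 to 1.57, covering counting error only), a single pair with no replicate. Egfr was 1 of 37 genes with at least 100 counts in both libraries of culture 1 and 0 counts in the other 4, and so were the fibroblast markers Thy1, Dcn and Lum and the pericyte marker Rgs5. A minimum of 100 counts was chosen after the values had been seen. The reverse pattern, 0 counts in culture 1 and at least 100 in all other libraries, was shown by 0 genes. The part of other cell types in the Egfr counts was not tested.

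Erbb4 was at the edge of detection everywhere, with 5, 8 and 5 counts in mock cultures 1, 2 and 3 and 0, 2 and 1 counts after NRG1. Each NRG1 library had fewer counts than its mock partner, and the groups did not overlap, but no library exceeded 1.18 CPM. Pooled over 3 libraries each, 3 counts after NRG1 stood against 18 in mock, a ratio of 0.141 after scaling to library size (exact 95% interval 0.0266 to 0.482, counting error only). In the fit without a low-count filter Erbb4 had an adjusted p of 0.04 and did not pass, and its fitted fold change depends on the prior count and is not given. Low counts occurred for other genes too where a high one would be usual, Col1a2 being listed with 0 to 2 counts in libraries where its partner chain Col1a1 had 119349 to 240687.

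Among the ligand genes, Nrg1 itself was transcribed at a low level, with 11, 19 and 29 counts in mock cultures 1, 2 and 3 and 19, 51 and 72 counts after NRG1. The added NRG1 was a recombinant protein and carried no rat transcript. In CPM these were 1.47, 2.81 and 2.28 in mock and 2.53, 5.73 and 4.65 in NRG1 samples, higher in every pair, with the NRG1 library of culture 1 lying inside the range of the mock samples. Means of 2.19 ± 0.68 and 4.30 ± 1.63 CPM corresponded to a fold change of 1.96 with a wide 95% interval from 1.30 to 2.95 (log2 0.97, standard error 0.28, adjusted p = 0.021). The pairs had log2 ratios of 0.71, 0.98 and 0.96. Adjusted p-values over the 10 alternatives ran from 0.014 to 0.38, and DESeq2 with the same block gave 0.13. Nrg1 therefore passed 0.01 in none of them, while its log2 fold change kept between 0.95 and 1.03. Soluble and transmembrane isoforms could not be told apart.

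Errfi1, which is induced by growth factors in many cell types and restrains EGFR and ErbB2, had 27.5, 13.9 and 13.6 CPM in mock cultures 1, 2 and 3 and 27.6, 11.5 and 10.97 CPM after NRG1. Culture 1 was high in both conditions, and the 2 other cultures were slightly lower after NRG1. The fold change was 0.88 with a 95% interval from 0.70 to 1.11 (log2 -0.18, standard error 0.16, adjusted p = 0.44). Without culture 1 the log2 fold change was -0.29 (adjusted p = 0.45, within a range of 0.42 to 0.94 over the alternatives).

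Levels also differed between the cultures. In the same fit, the test of both culture terms passed an adjusted p of 0.01 for Erbb2 (0.00013), Erbb3 (8.1e-05) and Errfi1 (0.00019) but not for Nrg1 (0.075), that is for 3 of the 4 genes, against 23.4% of all genes tested. Erbb2 was higher in cultures 2 and 3 than in culture 1 by 1.13 and 1.25 on the log2 scale, and Erbb3 by 1.15 and 1.30. Sox10, the transcription factor that maintains Schwann cell identity and drives Erbb3, was higher by 1.31 and 1.48. Errfi1 went the other way, at -1.13 and -1.18 relative to culture 1, and the fibroblast markers Col3a1 and Pdgfra were also lower there than in culture 1, Col3a1 at -5.62 and -6.45 and Pdgfra at -10.53 and -9.47 on the log2 scale. Fibroblast and pericyte markers thus move with culture 1 in these results, and their part in the levels was not tested. Between mock and NRG1, in contrast, 0 of the 3 fibroblast markers that could be tested passed an adjusted p of 0.01 in edgeR (1 of them, Col3a1, was under an unadjusted p of 0.05, with an adjusted p of 0.012), while 4 of 11 Schwann cell markers were called down against 5.51% of all genes. Among these markers S100b did not pass without culture 1 or without culture 3. Of the perineurial markers the 1 that was tested, the glucose transporter gene Slc2a1, rose (log2 fold change 0.59, adjusted p = 0.0045) and did not pass without culture 1 or without culture 3.

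**Figure D4:**
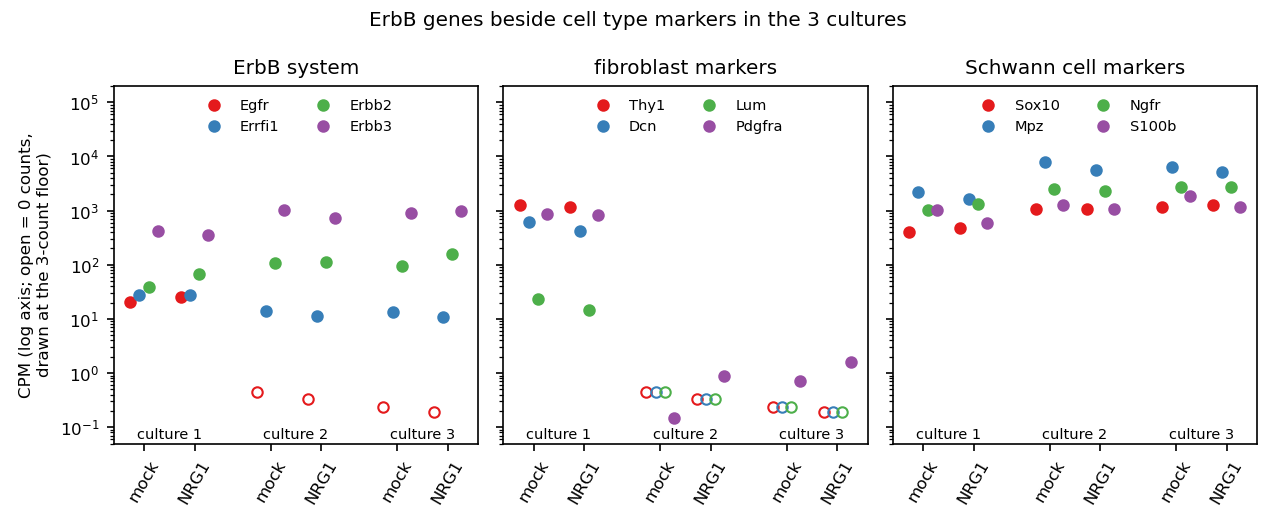
CPM on a log axis for Egfr, Errfi1, Erbb2 and Erbb3 (left), 4 fibroblast markers (middle) and 4 Schwann cell markers (right) in mock and NRG1 libraries of cultures 1, 2 and 3. Open circles are 0 counts drawn at the level of 3 counts. Egfr, Thy1, Dcn and Lum are filled in culture 1 alone, while Erbb2, Erbb3 and the 4 Schwann cell markers drawn are lowest there. Of the 11 Schwann cell markers listed, 9 passed an adjusted p of 0.01 in the edgeR test of the culture terms. Gfap and Cdh19, not drawn, did not pass (adjusted p = 0.24 and 0.42). Gfap had 81.1 and 102.0 CPM in culture 1 and 54.5 to 97.6 CPM elsewhere. The fibroblast marker Col1a1, also not drawn, was at 13413 to 21494 CPM in cultures 2 and 3.

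Other genes of the ErbB pathway were followed in 5 lists by role, to be read against 6.31% of all genes called up and 5.51% called down at an adjusted p of 0.01. Of the 10 other EGF-family ligands listed, 9 were among the genes counted, Nrg3 being absent, and 3 were abundant enough for the test. Tgfa, a ligand of EGFR, fell from 197.6 ± 43.2 to 113.0 ± 6.19 CPM (log2 fold change -0.79, standard error 0.13, adjusted p = 0.00074). Hbegf, which binds EGFR and ErbB4, was at 189.5 ± 96.6 and 205.1 ± 100.4 CPM, with a log2 fold change of 0.13 and an adjusted p of 0.47. Btc had a log2 fold change of 0.07 (adjusted p = 0.72). Egf and Epgn had 0 counts in all libraries, and Nrg2, Nrg4, Areg and Ereg had at most 7.

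Directly below the receptors, 3 of 35 tested adaptors and enzymes rose, 1 fell and 31 were not called, with a median log2 fold change of 0.03 against -0.03 over all genes. Those that rose were Shc3 and Shc4, adaptors that couple tyrosine kinases to Ras, and Map2k1, which encodes the kinase MEK1. Shc3 went from 3.20 ± 0.80 to 14.3 ± 2.20 CPM (log2 fold change 2.15, standard error 0.24, adjusted p = 3e-05), and Shc4 from 23.4 ± 14.7 to 55.4 ± 30.1 CPM (log2 fold change 1.28, standard error 0.14, adjusted p = 2.5e-05). Map2k1 rose by 0.59 on the log2 scale (standard error 0.12, adjusted p = 0.0033), but did not pass without culture 3. The docking protein gene Gab1 fell (log2 fold change -0.52, standard error 0.13, adjusted p = 0.0093), but did not pass when any 1 of the 3 cultures was left out. The 2 genes of the list with the highest CPM, which is not per length, Ptpn11, which encodes the phosphatase SHP2, and Mapk3, which encodes ERK1, had log2 fold changes of 0.26 (adjusted p = 0.13) and -0.19 (adjusted p = 0.29).

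Among proteins that bind, fold or degrade ErbB receptors, 3 of 22 tested genes rose, 2 fell and 17 were not called (median log2 fold change 0.07). Pa2g4, which encodes the ErbB3-binding protein EBP1, also known for its part in ribosome assembly, rose from 174.4 ± 53.8 to 345.8 ± 92.7 CPM (log2 fold change 1.00, standard error 0.12, adjusted p = 7.8e-05). The chaperone genes Cdc37 and Hsp90aa1, whose products hold ErbB2 in a stable form and serve many other kinases, rose by 0.64 (adjusted p = 0.0023) and 0.58 (adjusted p = 0.0048) on the log2 scale, and Hsp90aa1 did not pass without culture 2 or without culture 3. The ubiquitin ligase gene Wwp1 and Tob1, named transducer of ErbB2, fell, with log2 fold changes of -0.62 (adjusted p = 0.0024) and -0.57 (adjusted p = 0.0051). Neither passed without culture 3, nor did Tob1 without culture 2. Nedd4 and Hsp90ab1, with the highest CPM of the list (not per length), had log2 fold changes of -0.06 (adjusted p = 0.78) and 0.47 (adjusted p = 0.019). Of the proteases that shed neuregulin or cut its receptors and their regulators, 0 of 14 tested genes rose in edgeR and in DESeq2 (Furin and Rhbdf1 were higher at an unadjusted p under 0.05) and 1 fell (median log2 fold change -0.10). That gene was Timp3, an inhibitor of the sheddases and no protease, which went from 1295 ± 639.3 to 805.1 ± 282.0 CPM (log2 fold change -0.64, adjusted p = 0.0061) and did not pass without culture 2 or without culture 3. At an adjusted p of 0.05, which 23.2% of all genes passed, 4 genes of this list fell and 0 rose. Besides Timp3 these were Psenen, Bace2 and Psen2, with log2 fold changes of -0.43, -0.41 and -0.51. Adam19, a sheddase, was at 509.9 ± 506.3 and 507.5 ± 497.6 CPM and followed culture 1, where it was at 1082 to 1094 CPM against 197.8 to 237.8 elsewhere.

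At the far end of the pathway, 10 of 16 genes known as feedback inhibitors or targets of ERK rose and 1 fell, with a median log2 fold change of 1.01. Fosl1, a subunit of AP-1, rose by 1.69 (standard error 0.15, adjusted p = 8e-06), the ETS factor gene Etv5 by 1.65 (standard error 0.14, adjusted p = 5.2e-06), the ERK phosphatase gene Dusp6 by 1.23 (standard error 0.13, adjusted p = 2e-05) and Phlda1 by 1.17 (standard error 0.14, adjusted p = 5.4e-05), all on the log2 scale. Egr1, an immediate-early factor, fell (log2 fold change -1.13, standard error 0.26, adjusted p = 0.0071), a call that was lost with DESeq2, with robust fitting, without culture 2 and without culture 3. Among the genes that rose, Spry4 lost its call in the same settings, and Spred3 did not pass without culture 1 or without culture 3. In cultures 2 and 3 alone 10 genes of this list rose, 9 of them shared with the fit on all cultures, and 1 fell, where 5.94% of all genes were called up and 6.05% down. With a log2 fold change over 1 in size as well, which 3.47% of all genes reached, 8 genes of the ERK list and 0 of the 4 receptor, ligand and inhibitor genes were counted.

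**Figure D5:**
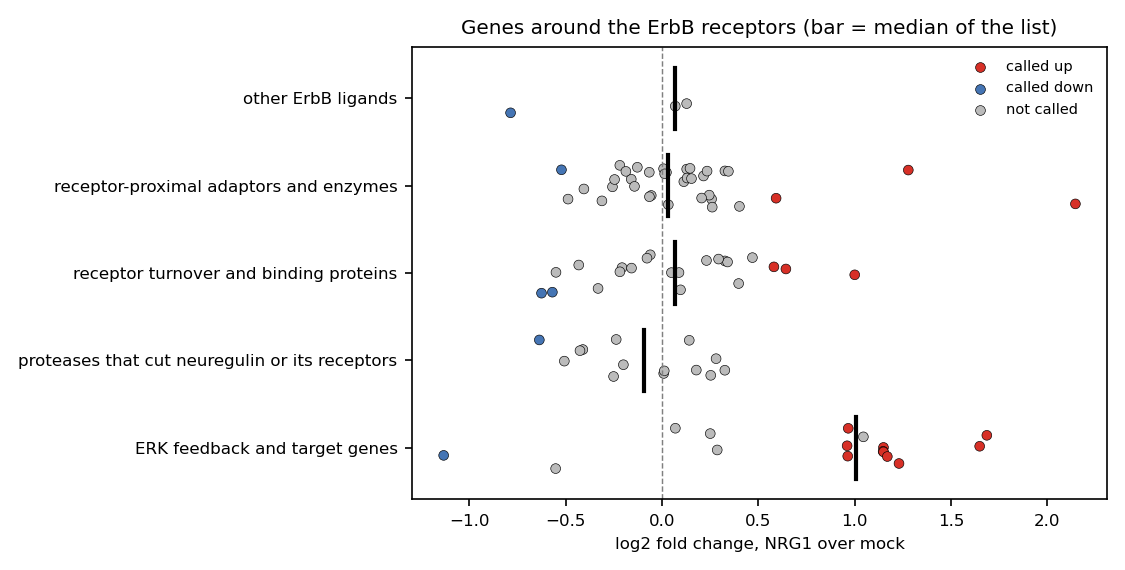
Log2 fold change of NRG1 over mock (horizontal axis) of every tested gene in 5 lists, red where called up, blue where called down and grey where not called at an adjusted p of 0.01, with a bar at the median of each list. Medians of the first 4 lists lie between -0.10 and 0.07 and that of the ERK list at 1.01.

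By the rule of highest Pearson correlation of log2 CPM over the 6 libraries, each tested gene was set beside 3 others out of 9739. Erbb2 was most like Irf2bpl, Homer3 and Adra2a (r of 0.995, 0.994 and 0.994), and Erbb3 was most like Lzts2, Map4 and Tacc2 (r of 0.998, 0.997 and 0.994). Nrg1 was nearest to Lyar, Ubqln1 and Dlx1 (r of 0.995, 0.994 and 0.994) and Errfi1 to Plxdc2, Pm20d1 and C1r (r of 0.999, 0.998 and 0.998). With 6 libraries in 3 cultures the points share cultures and libraries, and the values are a description with no test.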

How the data were processed

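RNA was measured in 6 libraries of rat Schwann cells, 3 mock and 3 NRG1, with group and culture number taken from the sample titles. Per the labels, the authors mapped reads of poly(A) libraries to rn5 with TopHat2 2.0.10, used HTSeq for counting over RefSeq genes and deposited raw counts, not normalized. The strand setting is not given in the sources used here, so overlapping antisense genes cannot be told apart. Lines for alignments not assigned to a gene were kept apart. Between 47.0% and 49.9% of all alignments listed were on genes, and 24.5% to 29.9% were not unique and went to no gene. Transcript lengths were not used here, so CPM are not levels per length, and the choice of genes by highest CPM says nothing of their order per molecule.

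Here the counts were filtered with filterByExpr (minimum count 10, leaving 9740 genes), scaled with TMM (CPM are counts per 1000000 of the scaled library) and tested with edgeR 4.0.16 in R 4.3.3 by quasi-likelihood, with the culture number as a block as in the study's methods, and Benjamini-Hochberg adjustment over all genes. A gene was called at an adjusted p of at most 0.01. Each standard error was back-calculated from the fold change and its F value. Log2 ratios of pairs use log2 CPM with a prior count of 2. The scripts were tested on simulated counts, in which 100 of 100 planted log2 changes of size 1 and 22 of 100 of size 0.5 were called. The spread between libraries was set in the simulation, so these shares need not hold for the real counts. Deviations from the group means correlated across genes with r of 0.91, 0.67 and 0.81 for libraries of 1 culture and between -0.80 and 0.51 otherwise, and the first principal component (68.0% of variance) set culture 1 apart. Named genes are the 7 genes, in each list those called (at most 4 per direction, by size) and the 2 of highest mean CPM, the nearest 3 by correlation, and markers. Some further genes are named for a looser threshold or a lost call. Genes and lists were chosen with earlier results of these data known. Alternatives were the fit with no block, DESeq2 1.42.0, RLE, other low-count filters, robust fitting, an adjusted p of 0.05 and leaving out each culture.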

Additional observations from a re-analysis of the deposited data

How the results depend on the processing

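Culture, condition and depth limit these values: Nrg1 rests on 11 to 72 counts and Erbb4 on at most 8, and 3 cultures do not allow an exact paired p below 0.25. The fit with no replicate block called 0 genes up and 0 down, also in each of the 5 lists (edgeR, smallest adjusted p 0.14, with 1334 genes at an unadjusted p under 0.05) and gave log2 fold changes of 0.49 for Erbb2, -0.19 for Erbb3, 0.98 for Nrg1 and -0.14 for Errfi1, none of which passed with or without the block. For the Erbb3 to Erbb2 log2 ratio, whose alternatives were added after the data had been seen, pairing cannot alter the difference of -0.75, since both means are the same by arithmetic. An adjusted p of 0.05 counted 1124 genes up, 1136 down and 3538 between cultures, and took in Erbb2 (0.53) and Nrg1 (0.97). With no low-count filter 857 genes were called down and 3543 between cultures, and Erbb2 passed with a log2 fold change of 0.52 (adjusted p = 0.002). Leaving out each culture in turn gave 408 to 590 genes up and 253 to 601 down, the lowest without culture 3. It gave log2 fold changes of 0.43 to 0.76 for Erbb2, -0.36 to -0.06 for Erbb3, 0.95 to 1.03 for Nrg1 and -0.29 to -0.10 for Errfi1, and a log2 ratio of Erbb3 to Erbb2 that differed by -0.83 to -0.61. In the lists of adaptors, receptor-binding proteins, proteases and ERK genes, 2, 2, 0 and 8 genes were called up and 0 in each down without culture 3, and 3, 2, 0 and 9 up and 0, 1, 1 and 1 down without culture 2. The protease-list and ERK genes called down without culture 2 were not Timp3 and Egr1. Those genes did not pass in that edgeR fit (adjusted p = 0.030 and 0.038), so the equal counts hold other genes. Of all genes, 408 of 10160 tested were called up and 253 down without culture 3, and 524 of 10339 up and 392 down without culture 2. Erbb2, Erbb3, Nrg1 and Errfi1 reversed direction in none of the 10 settings, and the causes of these shifts were not tested.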

Other observations

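Erbb2 and Erbb3 were also set beside Sox10 in the same library, a comparison chosen after the values had been seen. There were 0.0982, 0.0988 and 0.0794 Erbb2 counts per Sox10 count in mock cultures 1, 2 and 3 and 0.139, 0.108 and 0.125 after NRG1, so that culture 1 no longer stood below the others and each NRG1 value was above each mock value. For Erbb3 the ratio to Sox10 was 1.07, 0.934 and 0.769 in mock and 0.741, 0.675 and 0.786 in NRG1 libraries, lower after NRG1 in cultures 1 and 2 and nearly level in culture 3. Log2 differences of the pairs were 0.51, 0.12 and 0.65 for Erbb2 and -0.53, -0.47 and 0.03 for Erbb3. Sox10 itself had a log2 fold change of 0.11 with NRG1 (standard error 0.13, adjusted p = 0.58).

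Outside the genes named above, Ptprk, a receptor phosphatase that acts on EGFR, showed a culture pattern close to that of Egfr, with 42.5 and 36.7 CPM in culture 1 and 1.68 to 3.70 CPM in the other libraries. It was chosen after its values were seen. Akt1, which encodes a kinase downstream of ErbB3, had a log2 fold change of 0.40 with NRG1 (standard error 0.12, adjusted p = 0.022), and Cblb, a ubiquitin ligase that acts on EGFR, of -0.55 (standard error 0.17, adjusted p = 0.034), both short of 0.01.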
